A study of Mus musculus with 12 samples.

Results

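Integrin genes were examined in primary mouse adult fibroblast cultures after exposure to thymol. The 10 subunits of the list and the gene lists used below were chosen with earlier results of these data known. All 10 subunits were found by symbol among the 10697 genes measured. They comprised 4 subunits used mainly by leukocytes (*Itgam*, *Itgb2*, *Itgax* and *Itga4*) and 6 subunits that bind extracellular matrix (*Itgb1*, *Itga5*, *Itgav*, *Itgb3*, *Itgb5* and *Itga11*). The cells had been grown out of biopsies of wild-type C57BL6/j mice, and cells of both groups were grown in medium with fetal bovine serum. Of the 12 libraries, 6 came from cells given 100 µM thymol, a phenolic monoterpene of thyme and oregano, dissolved in DMSO, and 6 from cells given the same volume of DMSO, each for 24 h. The number and ages of the donor mice are not given in the sources used here, and nothing says that the 6 libraries of a group came from separate cultures, so that p-values measure the spread between libraries, which may be technical.

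Integrins are receptors made of an α and a β chain that join the cytoskeleton to the matrix or to other cells. The α chain sets most of the ligand preference, the β chain carries most of the cytoplasmic signaling, and a chain without its partner is largely kept inside the cell, so that the amount of a receptor depends on both transcripts. Fibroblasts grip fibronectin through α5β1 and αv integrins and fibrillar collagen through α1β1 and α11β1. Macrophages and other myeloid cells carry αMβ2 (CD11b/CD18, the complement receptor and Mac-1 antigen) and αXβ2 (CD11c/CD18), which share the β2 chain.

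The cultures held transcripts of both kinds of cell. The table listed 18 fibroblast markers out of 20, at a median level of 8.28 log2 CPM (reads scaled to a common library size, on a log2 scale), and 19 macrophage markers out of 20, at a median level of 7.99. Of 10 dendritic cell markers other than *Itgax*, 12 T and NK cell markers and 8 B cell markers, 0 were in the table. Other cell types were represented by 2 of 12 neutrophil markers (*S100a8* and *Mmp8*), 1 of 8 mast cell markers, 2 of 9 platelet markers, 2 of 9 endothelial, 1 of 8 epithelial and 2 of 8 skeletal muscle markers. Of these, *Pf4* and *Acta1* passed in limma (the linear model used throughout), both lower with thymol, a direction in which 1.57% of all genes passed. The macrophage markers summed to between 19550 and 21570 CPM in the DMSO libraries and between 19692 and 23480 in the thymol libraries, so that the groups overlapped. This sum follows mainly *Lyz2*, at a mean of 13.61 log2 CPM in DMSO and 13.69 with thymol. The next marker, *C1qa*, stood at 10.48 in DMSO. In such bulk libraries, fewer cells of a type and less RNA per cell cannot be told apart. The libraries held between 5435985 and 9049796 reads over the genes of the table, and such totals limit counting error only, since the reads are PCR products.

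**Figure D1:**
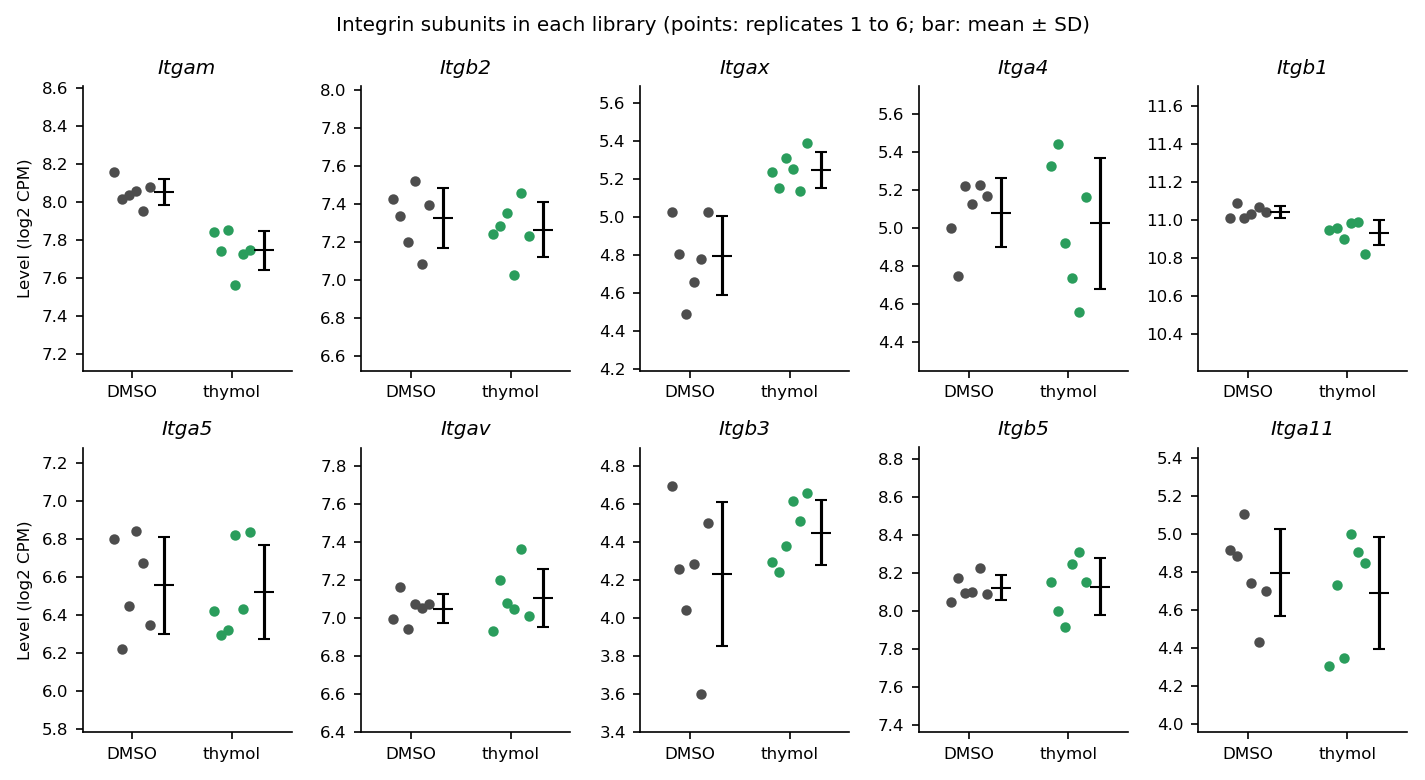
Level of each of the 10 integrin subunits (log2 CPM) in each of the 6 DMSO (grey) and 6 thymol (green) libraries, with the mean and SD as a bar; every panel spans the same number of log2 units. The 6 thymol points lie below the 6 DMSO points for *Itgam* and *Itgb1*, above them for *Itgax*, and among them for the other 7 subunits.

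The first question was how abundant each chain was, since a receptor needs both. The order of levels was read in CPM without division by length, because 3′ sequencing gives about 1 read per transcript. Reads were not calibrated between genes. *Itgb1*, the common β chain of the matrix receptors, led the list with 2106 ± 46.3 CPM in DMSO (SD, n = 6), in the 99.7th percentile of all genes of the table. It held 66.9% ± 0.956 of the summed reads of the 10 subunits in DMSO and 66.2% ± 1.27 with thymol (SD, n = 6 each). *Itgb5*, the β chain of the vitronectin receptor αvβ5, followed at 278 ± 12.9 CPM in DMSO, and *Itgam*, the α chain of CD11b/CD18, at 265 ± 12.6 CPM. The ranges of these last genes overlapped in DMSO, and both lay apart from *Itgb1*.

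*Itgb2*, the β chain of leukocyte integrins, stood at 161 ± 17.3 CPM in DMSO and *Itgav*, the α chain shared by the vitronectin receptors, at 133 ± 6.96 CPM, with ranges that overlapped (SD, n = 6 each). *Itga5*, the α chain of the fibronectin receptor, stood lower at 94.96 ± 16.55 CPM in DMSO. A group of low transcripts closed the order. *Itga4*, whose chain pairs with β1 to bind VCAM-1, stood at 33.8 ± 4.06 CPM in DMSO, *Itga11*, of the collagen receptor of fibroblasts, at 27.8 ± 4.34, *Itgax* at 27.7 ± 4.00, and *Itgb3*, which pairs with αv, at 19.002 ± 4.758. The ranges of neighbors among these overlapped. The leukocyte subunits made up between 14.2% and 16.6% of the summed level of the 10 subunits in DMSO, with a median of 15.7%, and between 12.7% and 16.1% with thymol, with a median of 15.3%. The groups therefore overlapped in the makeup of the pool.

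The comparison of thymol with DMSO asked which of these transcripts differed after treatment. Of the 10 subunits, 2 had an adjusted p-value under 0.05 (the threshold for passing) in limma, a linear model fitted to all genes, against 2.22% of all genes tested. Both were leukocyte α chains, and they differed in opposite directions: *Itgax* was higher with thymol, a direction in which 0.654% of all genes passed, and *Itgam* was lower, a direction in which 1.57% passed. Of the 6 matrix-binding subunits, 0 passed in limma, with 1 at a raw p-value under 0.05, against 11.8% of all genes. The median log2 fold change was -0.059 over the 4 leukocyte subunits and -0.014 over the 6 matrix-binding ones, beside 0.0026 over all genes. Of the 10 subunits 6 had a negative log2 fold change, as did 49.1% of all genes. Because the list was drawn up with earlier results of these data known, its share of calls is not that of a blind choice.

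*Itgam* fell with thymol. It encodes αM, which myeloid cells use to bind the complement fragment iC3b, fibrinogen and ICAM-1. The DMSO libraries ranged from 7.95 to 8.16 log2 CPM with a median of 8.05, and the thymol libraries from 7.56 to 7.85 with a median of 7.74. The lowest DMSO library, replicate 5, lay above the highest thymol library, replicate 3, so that the groups did not overlap. Of all genes, 1.68% did not overlap in either direction, 1.16% with all thymol values below and 0.524% with all thymol values above. The log2 fold change was -0.31 ± 0.059 (SE, limma adjusted p = 0.00071), a change of -19.1% with a 95% interval from -25.4% to -12.2%. The difference rested on a mean of 1876 reads in DMSO and 1400 with thymol. It passed in each of the 12 fits that left out 1 library, with log2 fold changes between -0.33 and -0.27. It no longer passed without the mean-variance trend of limma (adjusted p = 0.066) or in an exact permutation test adjusted over all genes (adjusted p = 0.13), the smallest adjusted p-value which that test gave. In the odd-numbered libraries alone the log2 fold change was -0.24 (limma adjusted p = 0.31), and in the even-numbered ones -0.37 (adjusted p = 0.0024).

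*Itgax* rose with thymol. It encodes αX, the chain of CD11c, which is found on dendritic cells, on alveolar macrophages and on macrophages that take up lipid. The DMSO libraries ranged from 4.49 to 5.02 log2 CPM with a median of 4.79, and the thymol libraries from 5.13 to 5.39 with a median of 5.24. The groups did not overlap, and the nearest libraries were DMSO replicate 6 and thymol replicate 5. The log2 fold change was 0.45 ± 0.12 (SE, limma adjusted p = 0.022), a rise of 36.5% with a 95% interval from 15.9% to 60.8%. This transcript was about as abundant as the median gene of the table, with a mean of 196 reads in DMSO and 244 with thymol. Its call depended on single libraries: the log2 fold change was 0.39 without DMSO replicate 3, 0.42 without DMSO replicate 4, 0.44 without thymol replicate 3 and 0.42 without thymol replicate 6, and none of these fits passed (adjusted p between 0.051 and 0.083). It no longer passed without the mean-variance trend (adjusted p = 0.064). In the exact permutation test adjusted over all genes *Itgax* had an adjusted p of 0.13, again the smallest which that test gave, and no gene passed it. The log2 fold change of *Itgax* was 0.46 in the odd-numbered and 0.43 in the even-numbered libraries (limma adjusted p = 0.32 and 0.30).

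**Figure D2:**
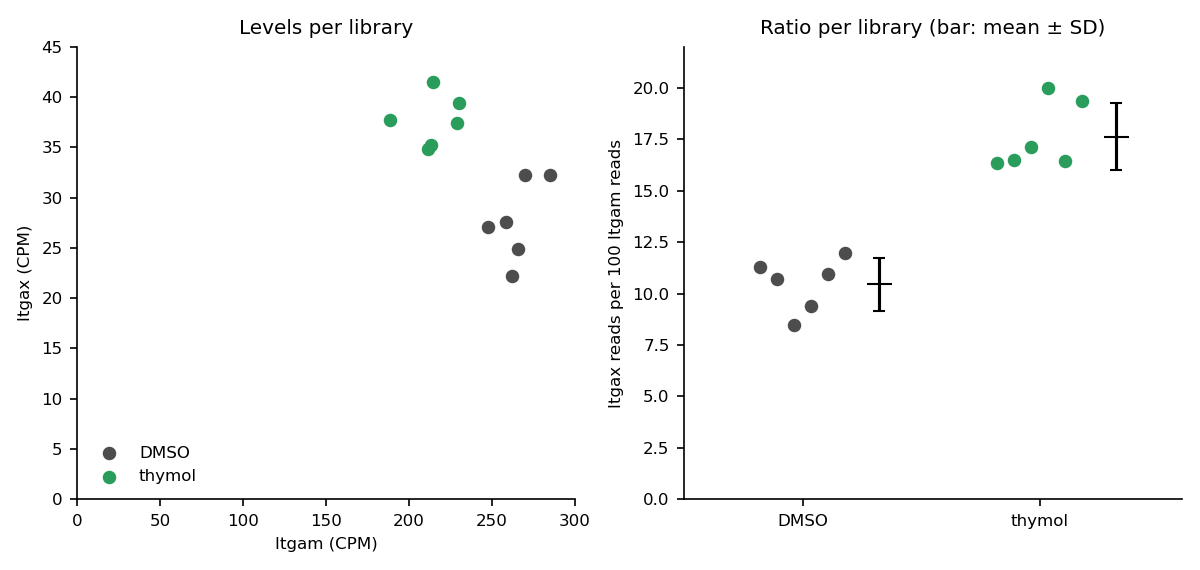
Left, *Itgax* against *Itgam* in CPM, 1 point per library, for 6 DMSO (grey) and 6 thymol (green) libraries; right, *Itgax* reads per 100 *Itgam* reads in each library, with the mean and SD as a bar. The thymol libraries sit higher on *Itgax* and further left on *Itgam*, and their ratios, from 16.36 upward, lie above the DMSO ratios of 8.45 to 11.95. The gap between the ratios follows from the lack of overlap in each gene.

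Set against each other, the α chains of CD11c and CD11b moved apart. In DMSO there were between 8.45 and 11.95 *Itgax* reads per 100 *Itgam* reads, with a median of 10.8. With thymol there were between 16.4 and 20, with a median of 16.8. Since every thymol library lay below the DMSO libraries in *Itgam* and above them in *Itgax*, these ratios could not overlap. They restate the differences of the genes. This ratio was picked after the values of both genes had been seen and is given without a test. It does not depend on the scaling of the libraries.

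*Itgam* and *Itgax* lie close together in the genome, with 1 annotated gene, the processed pseudogene *Gm45700* (128126835 to 128127181), between them. On GRCm38, *Itgam* (ENSMUSG00000030786) spans bases 128062640 to 128118491 of chromosome 7 and *Itgax* (ENSMUSG00000030789) bases 128129547 to 128150657, both on the plus strand and 11055 bases apart. *Itgad*, the α chain of a further β2 integrin, follows at 128154376 to 128223816 and was not in the table. The gene model *Gm49368* covers the same strand and shares exons with *Itgam*, but 0 of its exons overlap the 3′ exon of *Itgam* (128117306 to 128118491), where 3′ reads are expected to fall. How reads in shared exons were assigned is not given in the sources used here.

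The bases upstream of the starts of both genes are shown because the transcripts differed in opposite directions. They are taken from RefSeq on GRCm38.p6, plus strand, 5′ to 3′, and end at the base before the annotated start, at chr7:128062390-128062639 for *Itgam* and chr7:128129300-128129546 for *Itgax*. Capitals mark the letters GAGGAA, the core that the myeloid factor PU.1 prefers, and TGANTCA, the core bound by AP-1, on either strand.
Itgam: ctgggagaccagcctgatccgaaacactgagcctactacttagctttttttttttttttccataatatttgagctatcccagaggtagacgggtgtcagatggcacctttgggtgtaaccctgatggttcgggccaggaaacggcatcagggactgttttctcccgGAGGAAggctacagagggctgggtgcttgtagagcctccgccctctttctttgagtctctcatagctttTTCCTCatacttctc
Itgax: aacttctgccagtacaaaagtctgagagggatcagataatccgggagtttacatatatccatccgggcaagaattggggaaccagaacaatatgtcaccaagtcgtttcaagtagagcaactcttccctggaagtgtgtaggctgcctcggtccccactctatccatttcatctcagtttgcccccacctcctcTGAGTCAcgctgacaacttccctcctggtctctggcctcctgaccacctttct
The *Itgam* window held GAGGAA 2 times and TGANTCA 0 times, and the *Itgax* window held GAGGAA 0 times and TGANTCA 1 time. Also counted were GGGCGG, found 1 time for *Itgam* and 0 times for *Itgax*, and TATAAA, found 0 times for both. Of the windows of the 6 other listed subunits that have one, 4 held GAGGAA (*Itgav*, *Itgb1*, *Itga5* and *Itga11*) and 0 held TGANTCA. Both strands were searched, and the marked matches did not overlap. In 250-base windows upstream of all gene starts in the same RefSeq table, 23.4% held GAGGAA and 6.7% held TGANTCA. GC content over the 250 bases before the RefSeq start was 49.6% for *Itgam* and 50% for *Itgax*, against 55.6% to 68.4% for those 6 subunits, and *Itgb2* and *Itgb3* had no window. The *Itgax* bases printed are the first 247 of these, up to the GENCODE start. These matches describe the letters of the windows, and binding was not measured.

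*Itgb2* (chromosome 10, 77530252 to 77565708), whose chain joins αM, αX and αL at the cell surface, did not pass. Its DMSO libraries ranged from 7.09 to 7.52 log2 CPM with a median of 7.37, and its thymol libraries from 7.02 to 7.46 with a median of 7.26. The groups overlapped over nearly their whole range. The log2 fold change was -0.062 ± 0.072 (SE, limma adjusted p = 0.83), with a 95% interval of the change from -13.3% to 5.9%. The direction itself differed between the odd-numbered libraries (0.11) and the even-numbered ones (-0.24).

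*Itga4* (chromosome 2, 79255426 to 79333123), whose chain lymphocytes and monocytes pair with β1 or β7, did not pass either. Its DMSO libraries ranged from 4.75 to 5.23 log2 CPM with a median of 5.15, and its thymol libraries from 4.56 to 5.44 with a median of 5.05. The thymol libraries spread more widely than the DMSO libraries and enclosed them. The log2 fold change was -0.057 ± 0.13 (SE, limma adjusted p = 0.94), with a 95% interval of the change from -19.7% to 15.2%, and it was 0.10 in the even-numbered libraries. *Cerkl* lies on the opposite strand over *Itga4* and was not in the table.

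Among the matrix-binding subunits, *Itgb1* (chromosome 8, 128685654 to 128733200) came nearest to a difference. The DMSO libraries ranged from 11.01 to 11.09 log2 CPM with a median of 11.03, and the thymol libraries from 10.82 to 10.99 with a median of 10.95. The 6 thymol libraries all lay below the 6 DMSO libraries, by a small step, as in 1.16% of all genes. In the exact permutation test adjusted over all genes *Itgb1* had an adjusted p of 0.13, the same as *Itgam* and *Itgax*. The log2 fold change was -0.11 ± 0.043 (SE, limma adjusted p = 0.25), with a 95% interval of the change from -12.6% to -1.4%. With quantile normalization it was -0.20 and passed (limma adjusted p = 0.0014). The gene carried a mean of 14873 reads in DMSO and 12808 with thymol, so that its values had the least counting error of the 10.

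The α chains of the fibronectin and vitronectin receptors did not pass. *Itga5* (chromosome 15, 103344286 to 103366763, minus strand) ranged from 6.22 to 6.84 log2 CPM in DMSO, median 6.56, and from 6.29 to 6.84 with thymol, median 6.43. Its log2 fold change was -0.035 ± 0.096 (SE, limma adjusted p = 0.95), and the high libraries were shared between the groups: DMSO replicates 1 and 4 and thymol replicates 4 and 6. *Itgav* (chromosome 2, 83724397 to 83806916) ranged from 6.94 to 7.16 log2 CPM in DMSO, median 7.07, and from 6.94 to 7.36 with thymol, median 7.07. Its log2 fold change was 0.057 ± 0.070 (SE, limma adjusted p = 0.84), and thymol replicates 2 and 5 lay above the DMSO range and thymol replicate 1 just below it. The 95% interval of the change ran from -14.5% to 11.6% for *Itga5* and from -5.7% to 14.7% for *Itgav*.

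The partners of αv and the collagen receptor chain gave the same picture of overlap. *Itgb5* (chromosome 16, 33829665 to 33949338) ranged from 8.05 to 8.23 log2 CPM in DMSO and from 7.91 to 8.31 with thymol, around medians of 8.10 and 8.15. The log2 fold change, 0.0057 ± 0.060 (SE; adjusted p = 0.99 in limma), turned to -0.0052 when each library was centered on its median, and its 95% interval of the change ran from -7.7% to 9.2%. *Itgb3*, best known from platelets and osteoclasts (chromosome 11, 104608000 to 104670476), ranged from 3.60 to 4.69 log2 CPM in DMSO and from 4.24 to 4.66 with thymol, around medians of 4.27 and 4.44. DMSO replicate 5 was low in this gene, and the log2 fold change, 0.22 ± 0.16 (SE; adjusted p = 0.66 in limma), was 0.094 without it. *Itga11* (chromosome 9, 62677826 to 62783982) ranged from 4.43 to 5.10 log2 CPM in DMSO and from 4.30 to 5.00 with thymol, around medians of 4.81 and 4.79. Its log2 fold change was -0.11 ± 0.14 (SE, limma adjusted p = 0.85), and thymol replicates 1 and 3 were its lowest libraries together with DMSO replicate 5. At a mean of 135 reads for *Itgb3* and 199 for *Itga11* in DMSO, the 95% intervals of the change, -6.5% to 44.95% and -23.4% to 12.5%, leave room for differences as large as that of *Itgam*.

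**Figure D3:**
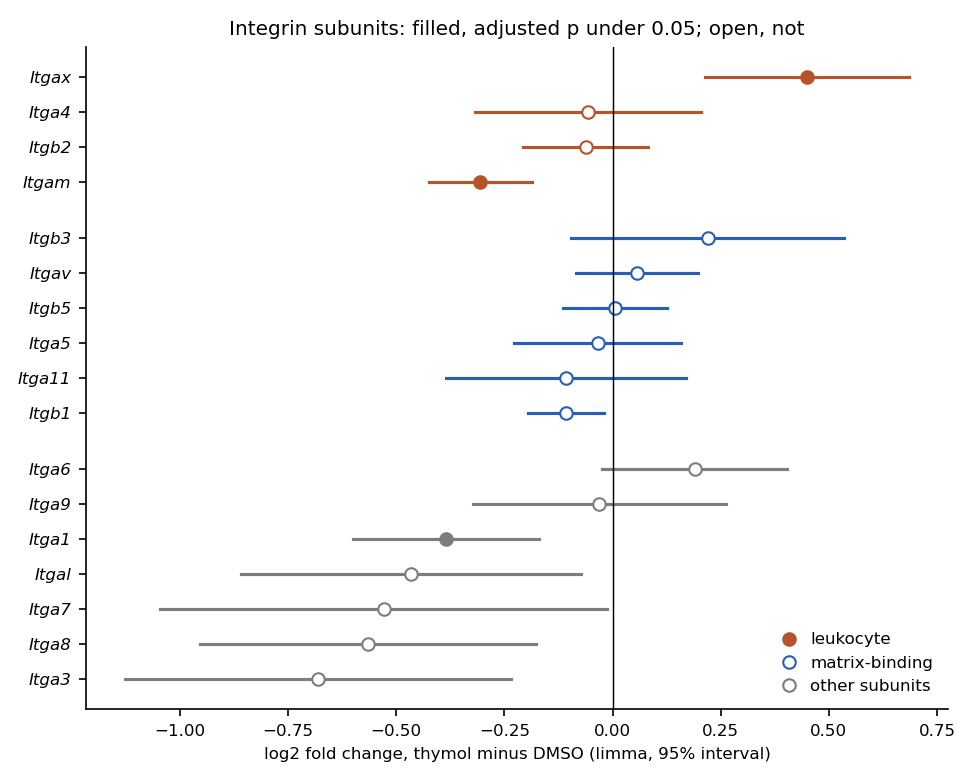
log2 fold change (thymol minus DMSO) of the 17 integrin subunits in the table, with the 95% interval of the limma fit; filled points had an adjusted p-value under 0.05 and open points did not. Leukocyte subunits are drawn in orange, matrix-binding ones in blue and other subunits in grey. *Itgax* lies furthest right at 0.45, *Itgam* lies at -0.31, and of the subunits outside the list 6 of 7 lie left of 0.

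A chain is expressed at the surface with its partner, so the ratio of each α transcript to its β partner was compared within libraries. Of 8 pairs, 2 passed an exact two-sided permutation test adjusted over the pairs. These hold the called subunits *Itgam* and *Itgax* over *Itgb2*, which did not pass (log2 fold change -0.062). Their tests therefore largely reuse differences already given. The adjustment covers only the 8 pairs. In the exact permutation test adjusted over all genes, *Itgam* and *Itgax* each had an adjusted p of 0.13. There were 165 *Itgam* reads per 100 *Itgb2* reads in DMSO and 139 with thymol, a log2 ratio lower by 0.24 with thymol (0.48 ± 0.11 against 0.72 ± 0.12, SD, n = 6 each, exact permutation test, adjusted p = 0.026). There were 17.3 *Itgax* reads per 100 *Itgb2* reads in DMSO and 24.6 with thymol, a log2 ratio higher by 0.51 (-2.02 ± 0.20 against -2.53 ± 0.22, SD, n = 6 each, exact permutation test, adjusted p = 0.026). The groups overlapped slightly in both ratios, and the tests share the *Itgb2* values. The *Itgam* ratio was lower by 0.20 without thymol replicate 5 and no longer passed (exact permutation test, adjusted p = 0.052). Within the odd-numbered libraries the log2 ratios differed by -0.36 and 0.35, and within the even-numbered ones by -0.13 and 0.67, where 3 against 3 libraries cannot give a p-value below 0.1.

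The matrix receptor pairs did not pass. There were 6.30 *Itgav* reads per 100 *Itgb1* reads in DMSO and 7.06 with thymol, a difference of 0.16 on the log2 scale (exact permutation test, adjusted p = 0.058) that passed only without thymol replicate 1 (0.20) or thymol replicate 4 (0.19). *Itga5*, *Itga4* and *Itga11* stood at 4.47, 1.61 and 1.32 reads per 100 *Itgb1* reads in DMSO and at 4.70, 1.67 and 1.32 with thymol. *Itgav* stood at 47.6 per 100 *Itgb5* in DMSO and 49.4 with thymol, and at 707 per 100 *Itgb3* in DMSO and 631 with thymol. For these 5 pairs the adjusted p-values of the exact permutation test lay between 0.81 and 0.998. *Itgam* and *Itgax* together gave 182.7 ± 14.99 reads per 100 *Itgb2* reads in DMSO and 164 ± 13.2 with thymol (SD, n = 6 each). As reads were not calibrated between genes, these ratios do not give the numbers of α and β transcripts.

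**Figure D4:**
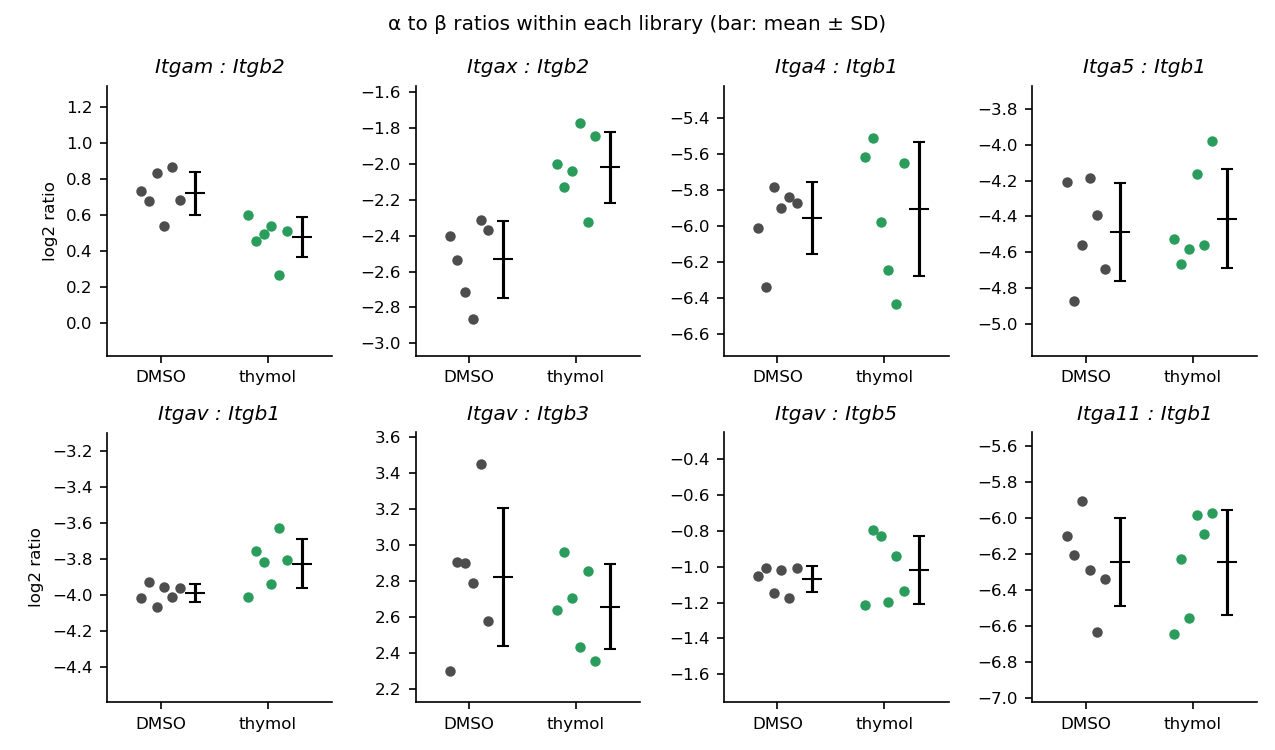
log2 ratio of each α subunit to a β partner in each of 6 DMSO (grey) and 6 thymol (green) libraries, with the mean and SD as a bar; every panel spans the same number of log2 units. The thymol points are shifted down for *Itgam* to *Itgb2* and up for *Itgax* to *Itgb2*, by 0.24 and 0.51, and the groups overlap in all 8 pairs.

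The genes whose profiles over the 12 libraries lay closest to the called subunits were named by the root-mean-square difference of log2 values, each centered on its own mean. For *Itgam* they were *Cyp51*, an enzyme of cholesterol synthesis (difference 0.077), *St6gal1*, a sialyltransferase (0.086), and *Acly*, which makes cytosolic acetyl-CoA (0.088), against a spread of *Itgam* itself of 0.17. For *Itgax* they were *Gpnmb*, a glycoprotein of macrophages (0.13), *Pwwp2a* (0.14) and *Mmp12*, macrophage elastase (0.14), against a spread of *Itgax* itself of 0.27. All of these values describe likeness over libraries that share the treatment contrast.

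Of the 16 other integrin subunits, 7 were in the table. Among these 1 passed in limma, lower with thymol, a direction in which 1.57% of all genes passed. A raw p-value under 0.05 was found in limma for 5 of the 7, against 11.8% of all genes, and 6 of the 7 had a negative log2 fold change. *Itga1*, of the collagen receptor α1β1, was the most abundant of the 7, followed by *Itga6*, of the laminin receptors, and *Itga9*. *Itga1* fell, with 5.97 ± 0.16 log2 CPM in DMSO and 5.58 ± 0.30 with thymol (SD, n = 6; log2 fold change -0.39; adjusted p = 0.035 in limma), although thymol replicate 4 stood within the DMSO range. *Itga6* differed by 0.19 and *Itga9* by -0.031 (limma adjusted p = 0.51 and 0.97). *Itga3*, a laminin receptor chain, had a log2 fold change of -0.68 ± 0.22 and *Itga8*, which binds nephronectin, of -0.56 ± 0.19 (SE, limma adjusted p = 0.10 and 0.13), with means of 81.3 and 122.5 reads in DMSO. *Itgal*, the α chain of LFA-1 and a further partner of β2, stood at a log2 fold change of -0.47 ± 0.20 (SE; adjusted p = 0.29 in limma) on a mean of 114.5 reads, and is named after its value had been seen. So is *Itga7*, at -0.53 ± 0.26 (SE, limma adjusted p = 0.41) on a mean of 69.5 reads in DMSO. The call of *Itga1* was lost in 8 of 12 fits that left out 1 library: DMSO replicate 1 (-0.36), 4 (-0.35), 5 (-0.37) or 6 (-0.39), or thymol replicate 2 (-0.39), 3 (-0.33), 5 (-0.34) or 6 (-0.37). Its log2 fold change was -0.24 in the even-numbered libraries. Without thymol replicate 4, *Itga8* passed (-0.68). The median over the 7 was -0.47 on the log2 scale. The 9 others, among them *Itga2b* of platelets, *Itgad*, *Itgae* and *Itgb7* of lymphocytes and *Itgb4* and *Itgb6* of epithelia, were not in the table, which the authors had filtered on low read numbers.

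Of 25 listed matrix and matricellular ligands 23 were measured, and 7 passed, 5 lower and 2 higher with thymol, against 1.57% of all genes lower and 0.654% higher, with a median log2 fold change of -0.099. Of the 5 fibrillar collagen genes in the list, whose products α1β1 and α11β1 bind, *Col3a1* (-0.54 ± 0.055) and *Col1a1* (-0.28 ± 0.044) fell (SE, limma adjusted p = 4.4e-10 and 2.9e-05). The others, *Col1a2* (-0.069), *Col5a1* (-0.16) and *Col5a2* (-0.17), did not pass (limma adjusted p = 0.61, 0.088 and 0.087) and are named after their values had been seen. *Tgfbi*, a secreted protein bound by several β1 and αv integrins, fell by 0.56 on the log2 scale and *Fbln5*, an elastic fiber protein with an RGD motif, by 0.27 (limma adjusted p = 0.0013 and 0.040).

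The ligands of αv integrins that bridge to dying cells split. *Mfge8* and *Edil3* encode related RGD proteins that bind phosphatidylserine. *Mfge8* rose, with 10.32 ± 0.077 log2 CPM in DMSO and 10.56 ± 0.084 with thymol (SD, n = 6; adjusted p = 0.00074 in limma) and no overlap between the groups. *Edil3* fell, with 3.51 ± 0.13 log2 CPM in DMSO and 2.58 ± 0.39 with thymol (SD, n = 6; adjusted p = 0.011 in limma), on a mean of 78.8 reads in DMSO and without overlap, and the log2 fold change of -0.93 became -0.41 when 10 CPM were added to each value. Such a lack of overlap was found in 0.524% of all genes with thymol above and in 1.16% with thymol below. *Spp1*, osteopontin, rose by 0.22 on the log2 scale (limma adjusted p = 0.018). *Fn1*, the ligand of α5β1, did not pass (log2 fold change 0.076, limma adjusted p = 0.61), and was picked for mention after its value had been seen.

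Single libraries decided some of these calls. *Spp1* no longer passed without DMSO replicate 2 (0.20), 3 (0.18) or 5 (0.17) or thymol replicate 6 (0.20), and was 0.079 in the even-numbered libraries. *Fbln5* no longer passed without DMSO replicate 2 (-0.27), 4 (-0.21), 5 (-0.26) or 6 (-0.27) or thymol replicate 1 (-0.24), 2 (-0.22), 3 (-0.26) or 6 (-0.27). The count of ligands that fell was 8 without thymol replicate 5. The summed fibroblast markers, which include *Col1a1* and *Col3a1*, lay between 16892 and 18058 CPM in DMSO and between 15909 and 16688 with thymol without overlap. Within this sum *Col1a1* averaged 3965 CPM in DMSO and 3276 with thymol, and *Col3a1* 473 and 325. *Col1a2*, *Col5a1*, *Col5a2*, *Fn1*, *Fbn1* and *Postn* are likewise both markers and listed ligands, so the sum is not separate from the ligand list. Of the 18 measured fibroblast markers 2 passed, both lower, a direction in which 1.57% of all genes passed. The part of the fibroblast marker level in these results was not tested.

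Counter-receptors that leukocyte integrins bind on other cells showed 0 calls among 7 measured of 14 listed, against 2.22% of all genes, with 2 at a raw p-value under 0.05 in limma, against 11.8% of all genes. Smallest in p-value were *C3*, the complement protein whose fragment αMβ2 and αXβ2 bind (log2 fold change -0.37), *Thy1*, a ligand of αMβ2 and αvβ3 and itself a fibroblast marker (-0.13), and *Jam3* (-0.18), with limma adjusted p-values of 0.20, 0.30 and 0.55. Fibrinogen genes and *Icam2* were not in the table.

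Inside the cell, 33 of 34 genes of the talin, kindlin and focal adhesion machinery were measured, and 3 passed, all lower with thymol, a direction in which 1.57% of all genes passed, with a median log2 fold change of -0.040. *Vcl*, vinculin, which reinforces talin under load, fell, with 8.45 ± 0.085 log2 CPM in DMSO and 8.23 ± 0.087 with thymol (SD, n = 6; adjusted p = 0.017 in limma). *Zyx*, zyxin of mature adhesions, fell, with 8.73 ± 0.053 log2 CPM in DMSO and 8.55 ± 0.074 with thymol (SD, n = 6; adjusted p = 0.036 in limma), and *Lims2*, a PINCH adaptor of integrin-linked kinase, by 0.43 on the log2 scale (limma adjusted p = 0.022). *Kank2* did not pass (log2 fold change -0.14, limma adjusted p = 0.27) and is named after its values had been seen. Its groups did not overlap, with all thymol values below, as in 1.16% of all genes. Among the calls, the same held for *Vcl* and *Zyx*. These calls were lost without single libraries: *Vcl* without DMSO replicate 4 (-0.20) or 6 (-0.20) or thymol replicate 3 (-0.20) or 6 (-0.20), *Zyx* without DMSO replicate 1 (-0.17), 2 (-0.19), 5 (-0.19) or 6 (-0.18) or thymol replicate 3 (-0.18) or 6 (-0.16), and *Lims2* without DMSO replicate 1 (-0.41), 2 (-0.39), 5 (-0.40) or 6 (-0.41) or thymol replicate 2 (-0.40), 3 (-0.39) or 6 (-0.41). The count of 3 fell to 1 without DMSO replicate 1, 2 or 5 and to 0 without DMSO replicate 6, thymol replicate 3 or thymol replicate 6.

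Of 23 listed genes of leukocyte integrin activation and signaling 20 were measured, and 0 passed in limma, against 2.22% of all genes, with 4 at a raw p-value under 0.05, against 11.8% of all genes, and a median log2 fold change of -0.034. *Lyn*, a Src-family kinase, had a log2 fold change of -0.20 ± 0.069, *Apbb1ip*, the Rap1 effector RIAM that recruits talin, of 0.16 ± 0.057, and *Rasgrp2*, an activator of Rap1, of -0.68 ± 0.31 on a mean of 40.3 reads in DMSO (SE, limma adjusted p = 0.14, 0.14 and 0.36). *Fermt3*, the kindlin of blood cells, and *Tyrobp* did not pass (log2 fold changes -0.069 and 0.046, limma adjusted p = 0.79 and 0.82), and were picked for mention after their values had been seen. Of the 19 measured macrophage markers 2 passed, against 2.22% of all genes. They were *Trem2*, higher (0.23), and *Cd14*, lower (-0.78), with limma adjusted p-values of 0.017 and 7.3e-10. The median log2 fold change of the 19 markers was 0.0052, and the list averaged 8.44 ± 0.034 log2 CPM in the DMSO libraries and 8.40 ± 0.057 in the thymol libraries (SD, n = 6). The part of the number of macrophages in the differences of *Itgam* and *Itgax* was not tested.

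**Figure D5:**
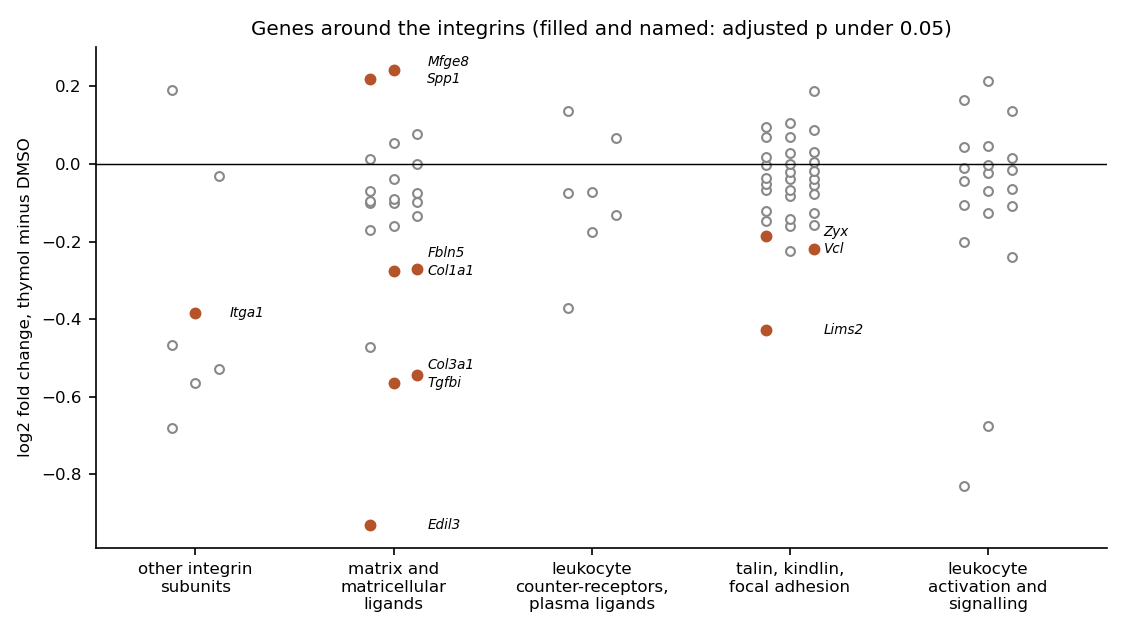
log2 fold change (thymol minus DMSO) of the measured genes of 5 lists around the integrins, 1 point per gene; filled, named points had an adjusted p-value under 0.05 in limma. Calls lie below 0 apart from *Mfge8* and *Spp1*, and the counter-receptor and leukocyte signaling lists hold 0 filled points.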

How the data were processed

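The authors prepared QuantSeq 3′ libraries from 75 ng of RNA with 20 PCR cycles, aligned the reads to GRCm38 with STAR 2.5.3, counted them per gene with HTSeq 0.6.1, retained genes that reached 30 reads in 6 or more samples and scaled the totals by trimmed means of M-values; in the recovered reads, 10485 of the 10697 genes met this minimum. The deposited values are log2 CPM to which a small prior count had been added. Whole reads were recovered from the equal steps of the low values: below 200 reads, 100% lay within 0.02 of a whole number, and the prior was 1.96 reads on average.

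The 10 subunits and all lists were chosen with earlier results of these data known. limma 3.58.1 (R 4.3.3; lmFit, eBayes with a mean-variance trend, no covariate, two-sided) was fitted to the 12 libraries and 10697 genes, with Benjamini-Hochberg adjustment over all genes, and was tested on simulated data. The fit used the deposited log2 values; voom on the recovered reads was an alternative and called 70 genes higher and 168 lower, of which 66 and 160 were shared with the fit of the log2 values. Ratios were tested with exact permutation over 924 relabelings, two-sided, (smallest p = 0.00216) and adjusted over 8 pairs. CPM levels exclude the prior count. Apart from the 10 subunits, the genes named are those past the threshold in each list, with the smallest p-values added where fewer than 3 passed, the 3 most abundant other subunits as levels, and the 3 nearest profiles of each called subunit, and a gene named outside this rule is said to be so. Positions are from GENCODE vM21 on GRCm38. Libraries with odd and even replicate numbers were also fitted apart, because the labels list odd numbers before even ones and earlier results of these data showed a difference between them.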

Additional observations from a re-analysis of the deposited data

Results flagged for a closer look

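Thymol replicate 5 stood apart in depth, at 9049796 recovered reads, while thymol replicate 1, nearest below it, held 6585162. Of 40 groups of 6 libraries examined by Dixon's criterion (read totals, levels of the 10 subunits, 8 ratios and the leukocyte share), this was the only 1 past the critical value, and chance alone puts about 1 group in 20 past it. Without this library the log2 fold change was -0.30 for *Itgam* and 0.47 for *Itgax*, both past the threshold (limma adjusted p = 0.0012 and 0.022), the *Itgam* to *Itgb2* ratio no longer passed, and *Itgav* differed by 0.0054 in place of 0.057.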

How the results depend on the processing

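Without the mean-variance trend 12 genes passed higher and 45 lower, and of the listed subunits 0 higher and 0 lower, of the other subunits 0 lower, of the matrix ligands 0 higher and 2 lower, and of the focal adhesion machinery 0 lower. In the odd-numbered libraries alone 21 genes passed higher and 49 lower, with 0 and 0 listed subunits, 1 and 1 matrix ligands and 0 of the focal adhesion machinery lower. In the even-numbered libraries 0 listed subunits passed higher, 0 other subunits lower and 1 matrix ligand higher. With the robust prior and with quantile normalization 1 matrix ligand passed higher, and with quantile normalization 2 listed subunits passed lower. An exact permutation test adjusted over all genes gave 0 higher and 0 lower, over all genes and over the listed subunits, where the smallest adjusted p-value was 0.13 and 1261 genes had an unadjusted p-value under 0.05 in limma. The pairing by replicate number rests on the number alone: same-numbered libraries correlated at -0.051 to 0.27 over 5394 genes, with 2 of 6 pairs above 0.1, and 3 of 12 libraries correlated best with their own number. With the replicate block the log2 fold change was -0.31 for *Itgam* and 0.45 for *Itgax* (limma adjusted p = 0.00019 and 0.018), and 8 matrix ligands passed lower. In the sign-flip test 0 ratios passed. Its smallest p-value is 0.031 before adjustment over the 8 pairs, so that a pair at that value could not pass by itself. In the odd-numbered and in the even-numbered libraries 0 ratios passed.

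With 1 library left out, genes passing ranged from 47 to 88 higher and from 123 to 197 lower, listed subunits from 0 to 1 higher with 1 lower throughout, other subunits from 0 to 2 lower, matrix ligands from 1 to 2 higher and from 4 to 8 lower, focal adhesion machinery from 0 to 4 lower, and ratios from 1 to 3. The direction changed only for results that did not pass. In the odd-numbered libraries *Itgb2* was 0.11, and the ratios of *Itga4*, *Itga5* and *Itga11* to *Itgb1* were -0.13, -0.17 and -0.22. In the even-numbered libraries *Itga4* was 0.10, *Itga5* 0.18, *Itgav* -0.017, *Itga11* 0.085, *Itga9* 0.060 and the *Itgav* to *Itgb5* ratio -0.028. *Itgb5* was -0.0052 with centered libraries, and the *Itga11* to *Itgb1* ratio was -0.00028 from recovered reads. With 1 library left out, the ranges that crossed 0 were -0.14 to 0.037 for *Itga4*, -0.10 to 0.023 for *Itga5*, -0.030 to 0.049 for *Itgb5*, -0.11 to 0.052 for *Itga9*, and, for ratios to *Itgb1*, -0.028 to 0.16 for *Itga4*, -0.013 to 0.13 for *Itga5* and -0.077 to 0.080 for *Itga11*. The causes were not tested. The lowest libraries held 74 reads of *Itgb3*, 126 of *Itga11*, 155 of *Itga4* and 166 of *Itgax*, and 461 or more of each other listed subunit.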
